A study of Mus musculus with 8 samples.

Results

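Chemokines, interleukins and their receptors were taken as every gene symbol of the count table that begins with Ccl, Cxcl, Ccr, Cxcr, Ackr or Il followed by a digit, or with Cx3c or Xcl. This gave 123 of 17967 symbols. All 123 matched a protein-coding gene of the RefSeq annotation of mouse genome build GRCm38.p6, from which the positions below come. By role they were 22 CC chemokines, 13 CXC, CX3C and XC chemokines, 16 chemokine receptors, 4 atypical chemokine receptors, 25 interleukins, 35 interleukin receptors, 5 interleukin decoys and inhibitors, and 3 genes that carry an interleukin name but have another function. There were 75 members with enough counts to be tested among 13694 genes, and 48 under the count filter, none of which had more than 19 counts in any library.

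The cells were adipose-derived stem cells, the mesenchymal progenitors of fat, sorted by flow cytometry after collagenase digestion of the fat. All donors were male C57BL/6J wild-type mice on a chow diet, and their RNA was sequenced in bulk. Libraries came from subcutaneous inguinal (SWAT), epididymal (EWAT) and perirenal (NWAT) fat, with 2 libraries per depot. The mesenteric depot (MWAT) was not analysed here. No age is given, and nothing in the labels says that replicates came from separate animals or whether animals were pooled, so every p-value here reflects library-to-library spread, which may be technical.

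Chemokines are small secreted proteins that guide leukocytes through G protein-coupled receptors, while the atypical receptors bind chemokines without G protein signalling and scavenge or shape their gradients. Interleukins act through receptor chains that are often shared: those of the IL-1 family signal through Toll-like adaptor proteins to NF-kB, and those of the IL-4 and IL-6 families through JAK kinases and STAT factors. Fat progenitors are a known stromal source of chemokines and of IL-6 and IL-33.

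The 250 bases upstream of an annotated start are shown for 7 members described below, 6 of which passed the joint test for a difference among depots and 1 of which (Cxcl1) did not, read from RefSeq's GRCm38.p6 promoter table and written 5′ to 3′ in the gene's direction. For Cxcl1, Cxcl2 and Il6, secreted factors that were compared between NWAT and SWAT, capitals mark an NF-kB pattern (GGG, any 2 bases, then TTTCC) on either strand.
Cxcl1 (chr5:90890995-90891244, plus strand): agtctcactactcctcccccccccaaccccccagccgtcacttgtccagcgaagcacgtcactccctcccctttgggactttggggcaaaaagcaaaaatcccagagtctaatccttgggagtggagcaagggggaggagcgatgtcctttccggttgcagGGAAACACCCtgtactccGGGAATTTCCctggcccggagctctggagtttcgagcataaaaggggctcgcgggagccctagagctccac
Cxcl2 (chr5:90903649-90903898, plus strand): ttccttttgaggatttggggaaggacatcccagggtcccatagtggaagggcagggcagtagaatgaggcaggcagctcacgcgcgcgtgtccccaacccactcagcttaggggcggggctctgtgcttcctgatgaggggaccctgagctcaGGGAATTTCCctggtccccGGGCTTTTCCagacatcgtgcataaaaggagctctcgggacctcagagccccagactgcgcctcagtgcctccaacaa
Il6 (chr5:30012864-30013113, plus strand): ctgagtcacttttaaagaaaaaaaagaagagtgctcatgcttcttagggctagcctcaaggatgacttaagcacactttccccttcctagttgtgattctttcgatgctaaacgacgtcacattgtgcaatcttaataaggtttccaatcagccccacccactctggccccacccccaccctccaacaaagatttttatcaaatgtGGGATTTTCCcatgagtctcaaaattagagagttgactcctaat
These letters lay within 100 bases of the start in all 3 windows. They occurred in 8 of 114 windows of 94 members (7.02%) and in 1.41% of all 32851 windows. For Cxcl9 and Cxcl10, neighbours on chromosome 5 that had their lowest levels in EWAT, capitals mark an interferon-response pattern (GAAA, any 2 bases, then GAAA) on either strand.
Cxcl9 (chr5:92328080-92328329, minus strand): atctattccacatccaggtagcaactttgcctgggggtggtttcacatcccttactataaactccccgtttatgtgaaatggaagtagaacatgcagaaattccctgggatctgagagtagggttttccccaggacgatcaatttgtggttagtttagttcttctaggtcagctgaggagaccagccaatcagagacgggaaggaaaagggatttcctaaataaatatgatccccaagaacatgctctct
Cxcl10 (chr5:92348890-92349139, minus strand): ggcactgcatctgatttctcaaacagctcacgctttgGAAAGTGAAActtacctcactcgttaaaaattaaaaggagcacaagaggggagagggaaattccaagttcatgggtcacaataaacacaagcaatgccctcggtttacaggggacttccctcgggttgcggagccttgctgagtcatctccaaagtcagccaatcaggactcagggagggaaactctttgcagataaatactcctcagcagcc
A match stood in the Cxcl10 window, 213 bases before the start, and the Cxcl9 window held none. These letters were in 3 of 114 member windows (2.63%) and in 2.98% of all windows. The NF-kB letters above had no match in the Cxcl10 window. A wider form (GGG, any 3 bases, then TTCC) was then chosen with the windows in view, and it contains every match of the first form. It had 2 matches in the Cxcl10 window and occurred in 14 of 114 member windows (12.3%) and in 4.65% of all windows. For Il1r2 and Il1rl2, receptors of the IL-1 cluster on chromosome 1 that were highest in SWAT, capitals mark the STAT letters TTCNNNGAA, which read the same on both strands.
Il1r2 (chr1:40085843-40086092, plus strand): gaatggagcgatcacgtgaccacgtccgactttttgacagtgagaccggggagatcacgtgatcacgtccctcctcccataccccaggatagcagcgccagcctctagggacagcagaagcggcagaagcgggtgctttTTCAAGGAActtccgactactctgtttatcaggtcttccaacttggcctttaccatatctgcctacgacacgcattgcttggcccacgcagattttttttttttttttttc
Il1rl2 (chr1:40324339-40324588, plus strand): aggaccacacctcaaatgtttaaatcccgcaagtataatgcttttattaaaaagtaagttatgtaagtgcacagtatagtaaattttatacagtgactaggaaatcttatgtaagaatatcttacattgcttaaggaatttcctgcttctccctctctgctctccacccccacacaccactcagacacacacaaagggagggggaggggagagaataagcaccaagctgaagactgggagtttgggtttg
The Il1r2 window had 1 match, 111 bases before the start, and the Il1rl2 window none. The letters were in 11 of 114 member windows (9.65%) and in 7.02% of all windows. Other patterns were searched on both strands and are not marked: an AP-1 pattern (TGANTCA) in 14% of member windows and 6.75% of all windows, a STAT6 pattern (TTC, any 4 bases, then GAA) in 11.4% and 5.85%, and the TATA letters TATAAA in 21.1% and 12.4%. Each match is a run of letters and was not tested as a binding site.

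The 6 libraries held 20026377 to 20638684 counts, of which members took 0.537% to 0.863%. Correlations of log levels were 0.988 to 0.991 within depots and 0.924 to 0.964 between them. Summed progenitor markers were at 24710 to 46460 CPM (counts scaled to library size with TMM factors, the level used for all values below unless FPKM is named), while summed macrophage markers were at 19.4 to 41.3 and T cell markers at 1.62 to 3.10. Mesothelial markers summed to 3.51 and 4.11 in SWAT, 160 and 169 in EWAT and 118 and 146 in NWAT. Most of this was Wt1 (means of 156 in EWAT and 121 in NWAT, listed at 0 in SWAT), the other 5 markers each averaged at most 6.30, and Krt19 was lower in EWAT than in SWAT (0.708 against 3.15). Endothelial markers summed to 198 to 367, mostly Tek. Red cell markers summed to 156 in NWAT replicate 2 and to 4.82 to 14.3 in the other 5 libraries. Dissociation-response genes, a list added after values were seen, summed to 45530 and 39000 in SWAT and to 29140 to 34000 in the other depots. The list was not uniform. Fos, Fosb, Jun, Ier2 and Hspa1a were higher in SWAT than in both other depots, and Egr1 higher than in EWAT. Nr4a1 was lower in SWAT, with a mean of 556 against 1607 in EWAT and 1520 in NWAT. Junb, Atf3, Ier3, Zfp36 and Dusp1 differed from SWAT in neither depot. In bulk RNA, fewer cells of a type and less RNA per cell cannot be told apart.

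In the joint test for any difference among depots, 44 of 75 tested members passed (edgeR's quasi-likelihood test, Benjamini-Hochberg adjusted p under 0.05 over all genes), against 41.7% of all genes. A member can enter the test through its level in 1 depot alone, so the share is a description. By level, 12 of 16 members at 100 CPM or more passed, 21 of 26 between 5 and 100 CPM, 8 of 18 between 1 and 5 CPM, and 3 of 15 below 1 CPM. The share of all genes was not taken at each level, so the 41.7% is no measure for these counts. EWAT differed from SWAT in 31 members, 9 higher and 22 lower, where 36.7% of all genes differed (18.7% higher and 18% lower). NWAT differed from SWAT in 27, 13 higher and 14 lower, against 18.9% of all genes (9.83% higher and 9.07% lower). NWAT differed from EWAT in 36, 25 higher and 11 lower, against 27.3% (14% higher and 13.3% lower).

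The members' median log2 fold change was -0.23 for EWAT against SWAT, -0.05 for NWAT against SWAT and 0.24 for NWAT against EWAT, where the medians of all genes were 0.01, 0.02 and -0.01. Scaling by library totals alone moved the median of all genes by 0.24 for EWAT against SWAT and by 0.19 for NWAT against SWAT. The split of member calls then became 17 higher and 20 lower for EWAT against SWAT and 23 higher and 11 lower for NWAT against SWAT. EWAT was lower than both other depots in 16 members (8.57% of all genes) and higher than both in 5 (9.02%). SWAT was higher than both in 11 (6.21%) and lower than both in 5 (5.88%). NWAT was higher than both in 7 (3.42%) and lower than both in 3 (2.35%).

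**Figure D1:**
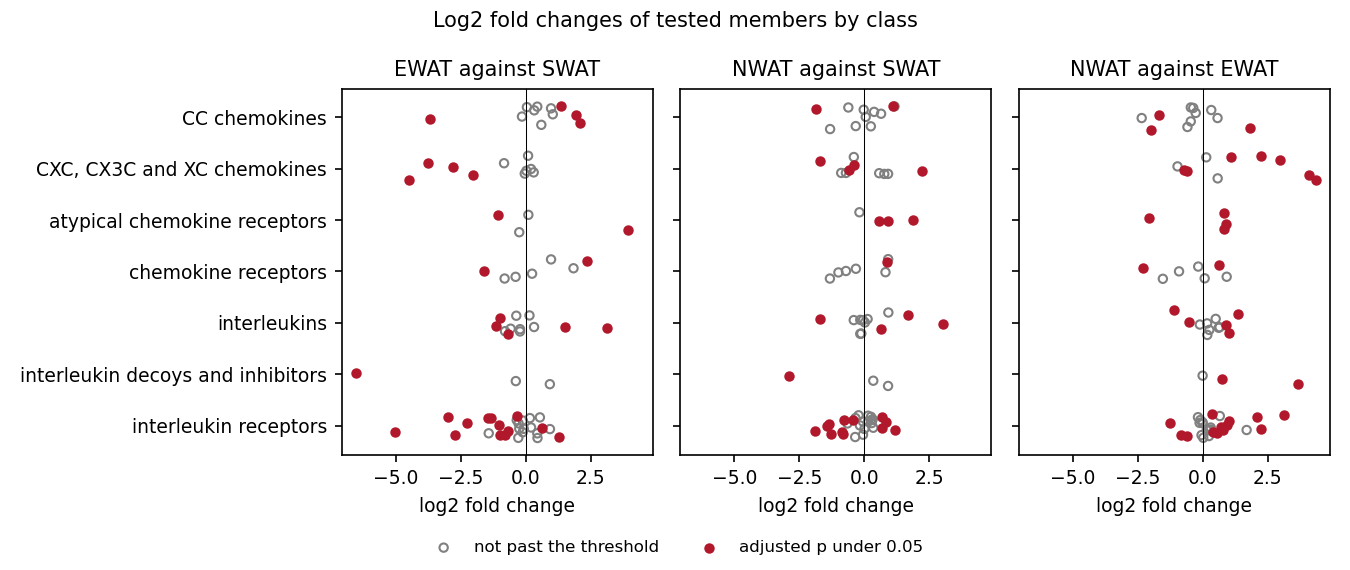
Log2 fold changes (horizontal axis) of the tested members for each pair of depots, in rows by role and spread vertically for visibility. Filled points passed an adjusted p of 0.05 in edgeR's test of that pair and open points did not. The 1 tested member with an interleukin name and another function is not drawn. The interleukin decoy farthest to the left for EWAT against SWAT is Il1r2, at -6.54.

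Of the IL-1 family receptor genes, Il1r1, Il1r2, Il1rl2, Il18r1 and Il1rap were higher in SWAT than in both other depots. A cluster on chromosome 1 holds 6 of their genes between positions 40084692 and 40551707. All 5 that could be tested were lower in EWAT than in SWAT, where 18% of all genes were lower. Il1r2, the decoy receptor that binds IL-1 without signalling, stood at 275 and 219 CPM in SWAT, 1.96 and 3.32 in EWAT and 30.9 and 35.7 in NWAT. No depots overlapped. With 2 libraries per depot this is common: 33.9% of all genes lay wholly lower in EWAT than in SWAT, 30.3% wholly lower in NWAT than in SWAT and 32.2% wholly higher in NWAT than in EWAT. Il1r2 was 92.9-fold lower in EWAT than in SWAT (log2 -6.54 ± 0.22 SE, adjusted p = 8.73e-09, edgeR's quasi-likelihood test) and 7.41-fold lower in NWAT than in SWAT (adjusted p = 1.45e-06).

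Il18r1, the ligand-binding chain of the IL-18 receptor, was at 38.7 and 31.9 CPM in SWAT, 1.26 and 0.898 in EWAT and 11.4 and 7.42 in NWAT. It was the member with the next largest fall in EWAT against SWAT after Il1r2 in this cluster, by 5.03 ± 0.25 SE on the log2 scale (edgeR adjusted p = 1.35e-07), with no overlap between depots. Il1rl2, the IL-36 receptor, had 507 and 478 CPM in SWAT, 112 and 90.6 in EWAT and 212 and 195 in NWAT. It was 4.87-fold lower in EWAT than in SWAT (edgeR adjusted p = 1.06e-07) and 2.42-fold lower in NWAT than in SWAT (adjusted p = 2.33e-05), again without overlap.

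Il1r1, the signalling IL-1 receptor, was at 402 and 436 CPM in SWAT, 211 and 210.2 in EWAT and 234 and 232 in NWAT. SWAT stood above both other depots, 1.99-fold over EWAT (edgeR adjusted p = 2.39e-05) and 1.80-fold over NWAT (adjusted p = 0.000169), while the difference of NWAT from EWAT was 0.15 on the log2 scale with a 95% interval from -0.08 to 0.38. Per unit of length, the decoy Il1r2 exceeded the signalling receptor Il1r1 in SWAT, at 166 against 80.2 FPKM, and lay below it in EWAT, at 2.19 against 47.9 FPKM, and in NWAT, at 25.5 against 51.2 FPKM. Il1rl1, the IL-33 receptor ST2, was low throughout, at 4.44 and 7.70 CPM in SWAT, 0.980 and 0.853 in EWAT and 5.06 and 2.67 in NWAT. Its EWAT libraries lay below all others (log2 -2.72 ± 0.39 SE against SWAT, edgeR adjusted p = 0.000373), while SWAT and NWAT overlapped. The NWAT difference from EWAT was 2.07, and it did not pass without EWAT replicate 2 (1.98) or with limma on log2(FPKM + 1) without a filter (0.69). The remaining gene of the cluster, Il18rap, had at most 2 counts in any library.

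Il1rap, on chromosome 16, encodes the accessory chain used by the IL-1, IL-33 and IL-36 receptors. It had 52.8 and 55.1 CPM in SWAT, 21.0 and 21.6 in EWAT and 22.2 and 19.98 in NWAT, so SWAT stood 2.54-fold above EWAT (edgeR adjusted p = 1.68e-06) and 2.56-fold above NWAT (adjusted p = 3.99e-06). The ligands Il1a and Il1b and the antagonist Il1rn were under the count filter, with at most 4, 8 and 9 counts in any library. Within 200 kb of the chromosome 1 cluster, 1 other gene was tested: the kinase gene Map4k4, which was also lower in EWAT than in SWAT, by 0.34 on the log2 scale (edgeR adjusted p = 0.0362).

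**Figure D2:**
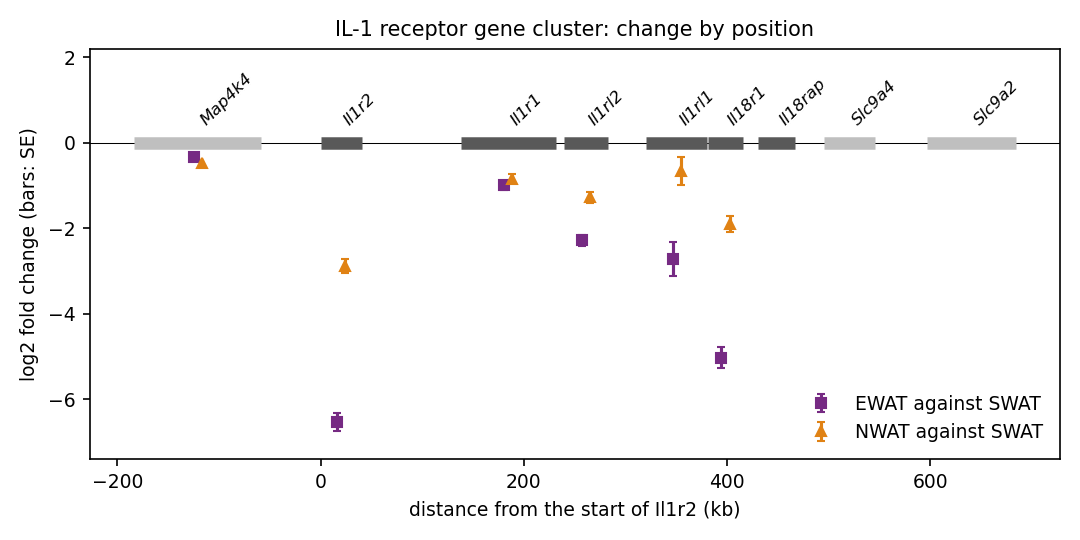
Log2 fold changes against SWAT (vertical axis, bars are SE of the edgeR fit for members, none drawn for Map4k4) of genes by distance from the start of Il1r2 in kb (horizontal axis). Dark boxes on the zero line are members and light boxes are neighbouring genes. Squares are EWAT and triangles NWAT, and the squares run from -0.34 for Map4k4 to -6.54 for Il1r2.

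Ligands of the IL-1 family were fewer. Il1f9 had 112 counts over both SWAT libraries, 101 in EWAT and 136 in NWAT, and did not pass the joint test. Il33, an alarmin made by stromal cells, had 40.4 and 46.7 CPM in SWAT, 22.2 and 31.8 in EWAT and 76.1 and 60.6 in NWAT. The 3 depots did not overlap, with NWAT 2.53-fold over EWAT (edgeR adjusted p = 0.000317) and 1.57-fold over SWAT (adjusted p = 0.024). The call against SWAT was lost when SWAT replicate 1 (0.55) or 2 (0.76), or NWAT replicate 1 (0.47), was left out, and that of EWAT against SWAT (-0.69) without SWAT replicate 2 (-0.58). The latter was also lost by library totals (-0.45) and the 3 limma settings (-0.44 to -0.47). Il18 had 35.0 and 27.1 CPM in SWAT, 11.5 and 16.5 in EWAT and 28.6 and 27.0 in NWAT. EWAT was lowest, 2.22-fold below SWAT (edgeR adjusted p = 0.000545), and SWAT and NWAT overlapped. Il18 shares 515 bases with Bco2, which was also lowest in EWAT (means of 7.14 in SWAT, 1.14 in EWAT and 5.19 in NWAT), and the strand of the counting is not given in the sources used here. Its soluble inhibitor Il18bp was at 6.03 and 7.33 CPM in SWAT, 5.13 and 5.08 in EWAT and 7.77 and 9.17 in NWAT. NWAT exceeded EWAT by 0.73 on the log2 scale (edgeR adjusted p = 0.00912), a call lost, with the joint call, without NWAT replicate 2 (0.60). DESeq2 also ended the joint call.

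Il4ra and Il13ra1, which are among the receptor chains for IL-4 and IL-13, were highest in SWAT and in NWAT, respectively. Il4ra, the signalling chain of both cytokines, had 277 and 300 CPM in SWAT, 36.9 and 34.6 in EWAT and 143 and 191 in NWAT. The depots did not overlap, and EWAT was 8.06-fold below SWAT (log2 -3.01 ± 0.15 SE, edgeR adjusted p = 3.65e-08) and 4.66-fold below NWAT (adjusted p = 8.02e-07). Il13ra1, which pairs with it, was instead highest in NWAT, at 96.1 and 81.8 CPM against 50.0 and 50.9 in SWAT and 44.1 and 48.8 in EWAT. NWAT exceeded SWAT 1.76-fold (edgeR adjusted p = 0.00028) and EWAT 1.91-fold (adjusted p = 7.28e-05).

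Il6, an inflammatory cytokine, was lowest in SWAT. It had 119 and 81.5 CPM in SWAT, 238 and 335 in EWAT and 281 and 361 in NWAT. Both SWAT libraries lay below the other 4, and EWAT exceeded SWAT 2.86-fold (log2 1.51 ± 0.23 SE, edgeR adjusted p = 0.00115) and NWAT did so 3.20-fold (adjusted p = 0.00121), while EWAT and NWAT overlapped. Il6ra, its specific receptor chain, stood at 46.8 and 46.0 CPM in SWAT, 42.5 and 30.2 in EWAT and 60.3 and 57.2 in NWAT. It was 1.62-fold higher in NWAT than in EWAT (edgeR adjusted p = 0.00391). Il6st, the shared signalling chain gp130, was at 614 and 639 CPM in SWAT, 546 and 435 in EWAT and 601 and 607 in NWAT. It did not pass the joint test (edgeR adjusted p = 0.081), but did so with DESeq2. As a pair, EWAT against SWAT passed, but not with library totals (log2 -0.12) or the 3 limma settings (-0.13). Without EWAT replicate 2 this log2 difference was -0.21.

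Il11ra1, the IL-11 receptor, had 249 and 267 CPM in SWAT, 119 and 130.4 in EWAT and 132 and 158 in NWAT. SWAT stood above all others, 2.07-fold over EWAT (edgeR adjusted p = 3.58e-05) and 1.78-fold over NWAT (adjusted p = 0.000416). Reads of its near-identical copy Il11ra2 could be split between the 2 genes. Il31ra, the IL-31 receptor, averaged 6.98 (SWAT), 2.57 (EWAT) and 2.59 CPM (NWAT), and was lower in EWAT and in NWAT than in SWAT (edgeR adjusted p = 0.00229 and 0.00435).

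**Figure D3:**
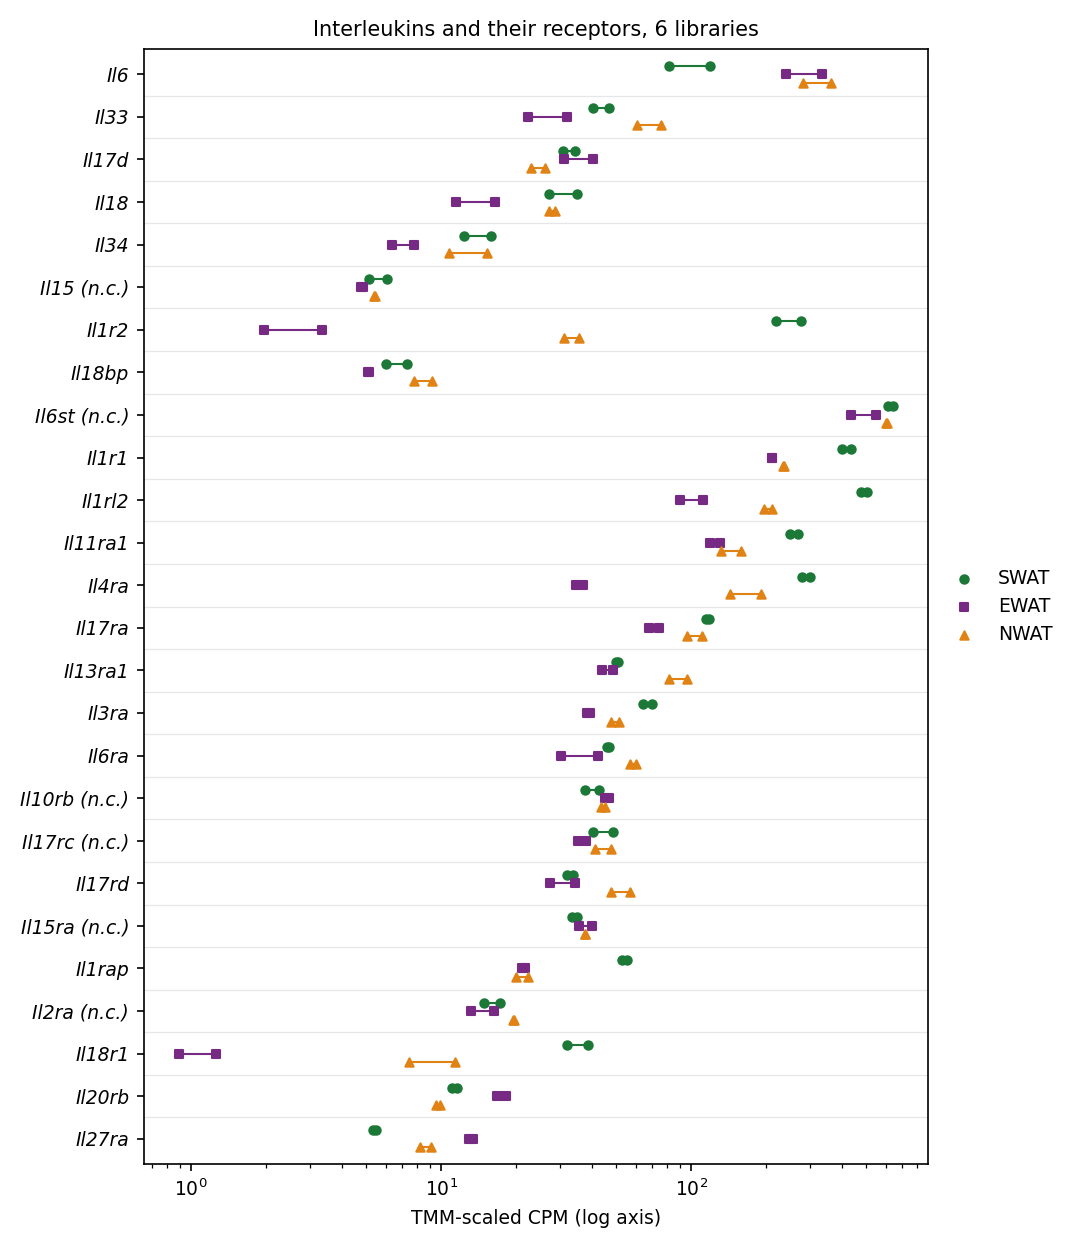
TMM-scaled CPM (horizontal log axis) of interleukins, decoys and receptors with a mean of at least 5 CPM, with 1 point per library and a line joining the 2 libraries of a depot. Genes marked n.c. did not pass the joint test. Il1r2 spans 1.96 to 275 CPM.

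Il17ra, the common IL-17 receptor chain, had 117 and 115 CPM in SWAT, 74.0 and 68.1 in EWAT and 95.9 and 110.2 in NWAT. EWAT was lowest, 1.63-fold below SWAT (edgeR adjusted p = 0.000358), and its difference from NWAT (0.54) was lost without NWAT replicate 2 (0.43). Il17rd, a receptor of the IL-17 family also known as Sef, was highest in NWAT, at 47.7 and 56.8 CPM against 33.6 and 31.8 in SWAT and 34.5 and 27.3 in EWAT. NWAT exceeded EWAT 1.69-fold (edgeR adjusted p = 0.00121), and its call against SWAT (0.68) was lost without NWAT replicate 2 (0.54).

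Il3ra, the IL-3 receptor chain, was at 69.7 and 64.2 CPM in SWAT, 38.4 and 39.2 in EWAT and 51.4 and 47.7 in NWAT, in separate ranges. EWAT was 1.72-fold below SWAT (edgeR adjusted p = 9e-05). The call of NWAT against SWAT (-0.43) was lost without SWAT replicate 1 (-0.37) or NWAT replicate 2 (-0.38), and that of NWAT against EWAT (0.35) without NWAT replicate 1 (0.30) or 2 (0.41). The first was also lost by library totals (-0.24) and the 3 limma settings (-0.25 to -0.26), and the second by the limma settings (0.23 to 0.24). Il27ra and Il20rb were highest in EWAT. Il27ra, for IL-27, had 5.48 and 5.32 CPM in SWAT, 13.4 and 12.9 in EWAT and 8.25 and 9.07 in NWAT. EWAT exceeded SWAT 2.44-fold (edgeR adjusted p = 3.32e-05). The NWAT call against SWAT (0.68) was lost without SWAT replicate 2 (0.66) or NWAT replicate 2 (0.61), and that against EWAT (-0.60) without NWAT replicate 1 (-0.54). Il27ra shares 386 bases with Palm3, which also had its highest mean in EWAT (2.39 in SWAT, 5.96 in EWAT and 1.80 in NWAT). Il20rb, a chain of receptors for IL-20-type cytokines, had 11.6 and 11.1 CPM in SWAT, 16.7 and 18.2 in EWAT and 9.54 and 9.89 in NWAT, with EWAT 1.54-fold over SWAT (edgeR adjusted p = 0.0024).

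Among other interleukins, Il34, a ligand of the CSF-1 receptor, had 15.8 and 12.4 CPM in SWAT, 7.80 and 6.33 in EWAT and 15.2 and 10.7 in NWAT. EWAT was lowest, 1.99-fold below SWAT (edgeR adjusted p = 0.00265). Its difference from NWAT (0.88) was lost without EWAT replicate 2 (0.74) or NWAT replicate 1 (0.60), and the joint call was lost without EWAT replicate 2. Il17d had 34.3 and 30.6 CPM in SWAT, 30.9 and 40.4 in EWAT and 22.8 and 26.1 in NWAT, with NWAT below EWAT by 0.55 on the log2 scale (edgeR adjusted p = 0.0129). That call was lost without EWAT replicate 2 (-0.34) or NWAT replicate 1 (-0.45), and the latter also ended the joint call. Unfiltered limma ended both calls as well (-0.56).

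Of 10 tested CXC, CX3C and XC chemokines, 4 were lower in EWAT than in SWAT and 0 higher, where 18% of all genes were lower and 18.7% higher. Cxcl13, which attracts B cells, had 183 and 208 CPM in SWAT, 6.91 and 10.4 in EWAT and 114 and 181 in NWAT. EWAT was 22.5-fold below SWAT (log2 -4.50 ± 0.28 SE, edgeR adjusted p = 1.01e-05) and 17.0-fold below NWAT (adjusted p = 2.61e-05). Cxcl9, a ligand of the T cell receptor CXCR3, had 122 and 124 CPM in SWAT, 7.10 and 10.9 in EWAT and 142 and 222 in NWAT. EWAT was 13.6-fold below SWAT (edgeR adjusted p = 1.73e-05) and 20.2-fold below NWAT (adjusted p = 1.38e-05).

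Cxcl10, another CXCR3 ligand, showed the same order at wider spread, with 204 and 157 CPM in SWAT, 35.0 and 52.0 in EWAT and 225 and 454 in NWAT. EWAT was 4.15-fold below SWAT (edgeR adjusted p = 0.0193) and 7.80-fold below NWAT (adjusted p = 0.0087). The log2 difference of EWAT from SWAT (-2.05) did not pass when SWAT replicate 1 (-1.85) or 2 (-2.23) or EWAT replicate 1 (-1.79) or 2 (-2.38) was left out, and NWAT against EWAT (2.96) and the joint test did not without EWAT replicate 1 (2.70) or 2 (3.28). With no count filter, the joint test and EWAT against SWAT (-2.06) did not pass. A summed list of interferon-response genes, added after these values were seen, was at 1322 and 1403 CPM in SWAT, 778 and 879 in EWAT and 1780 and 2498 in NWAT, in the same order as Cxcl9 and Cxcl10, and its part in the result was not tested. Cxcl10 overlaps Art3 by 2252 bases, whose mean level was 5.64 in SWAT, 2.75 in EWAT and 1.93 in NWAT. The receptors Cxcr3 and Cxcr5, for these ligands, had at most 2 and 3 counts in any library.

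Cxcl14 was highest in SWAT, at 529 and 568 CPM against 80.0 and 77.6 in EWAT and 151 and 183 in NWAT. Its depots did not overlap, and SWAT was 6.96-fold over EWAT (log2 -2.80 ± 0.13 SE for EWAT against SWAT, edgeR adjusted p = 2.16e-08) and 3.28-fold over NWAT (adjusted p = 2.19e-06). Cxcl12, which acts through CXCR4 and ACKR3, was lowest in NWAT, at 164 and 168 CPM against 225 and 273 in SWAT and 222 and 282 in EWAT. The call of NWAT against SWAT (-0.58, edgeR adjusted p = 0.0114) was lost when SWAT replicate 2 (-0.44) or NWAT replicate 1 (-0.57) or 2 (-0.60) was left out, and by library totals (-0.39) and the 3 limma settings (-0.39 to -0.40). NWAT against EWAT (-0.60) was lost without NWAT replicate 1 (-0.59), and the joint call was lost without either NWAT library. Cxcl16, a membrane-bound chemokine, had 22.7 and 21.4 CPM in SWAT, 24.9 and 29.3 in EWAT and 15.9 and 17.0 in NWAT. NWAT was 1.65-fold below EWAT (edgeR adjusted p = 0.000941), while its call against SWAT (-0.42) was lost when SWAT replicate 1 (-0.38) or 2 (-0.46) or NWAT replicate 1 (-0.37) or 2 (-0.47) was left out. That call was also lost with DESeq2 (-0.43), library totals (-0.23) and the 3 limma settings (-0.19 to -0.21). Cxcl16 shares 552 bases with Zmynd15.

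The neutrophil attractant Cxcl2 was highest in NWAT. It had 9.87 and 6.43 CPM in SWAT, 7.42 and 8.35 in EWAT and 27.8 and 47.0 in NWAT. Both NWAT libraries stood above the other 4, 4.59-fold over SWAT (edgeR adjusted p = 0.00149) and 4.73-fold over EWAT (adjusted p = 0.000952). Without EWAT replicate 1 the log2 differences were 2.2 and 2.16 and without EWAT replicate 2 they were 2.19 and 2.33, and neither then passed. The joint call was lost without EWAT replicate 2. Cxcl1 had 900.5 and 546 CPM in SWAT, 778 and 879 in EWAT and 1001 and 1458 in NWAT, and did not pass the joint test (edgeR adjusted p = 0.0727). With library totals, and with limma where a filter was used, Cxcl1 did pass. Its log2 difference of NWAT from SWAT was 0.77, and it was 1.01 without NWAT replicate 1 and 0.47 without NWAT replicate 2. NWAT replicate 2, the library with the most red cell marker counts, was the highest of the 6 for Cxcl1, Cxcl2, Cxcl10 and Ccl2. This library was also the highest for Ccl7, Il6, Cxcl9, Il17rd, Il18bp, Cxcr2 and Ackr3, and for the summed interferon-response list. Without it, NWAT still exceeded EWAT in Cxcl2 (1.81) and Cxcl10 (2.37) and SWAT in Cxcl2 (1.77) in edgeR's test. Cxcr2, the receptor of Cxcl1 and Cxcl2, had 4.55 and 5.69 CPM in SWAT, 6.12 and 5.97 in EWAT and 8.82 and 9.75 in NWAT. NWAT exceeded SWAT 1.81-fold (edgeR adjusted p = 0.00424), a call lost without SWAT replicate 1 (0.70). Its difference from EWAT (0.62) was lost without EWAT replicate 2 (0.61), NWAT replicate 1 (0.69) or NWAT replicate 2 (0.54), with DESeq2 (0.62) and with unfiltered limma (0.42).

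**Figure D4:**
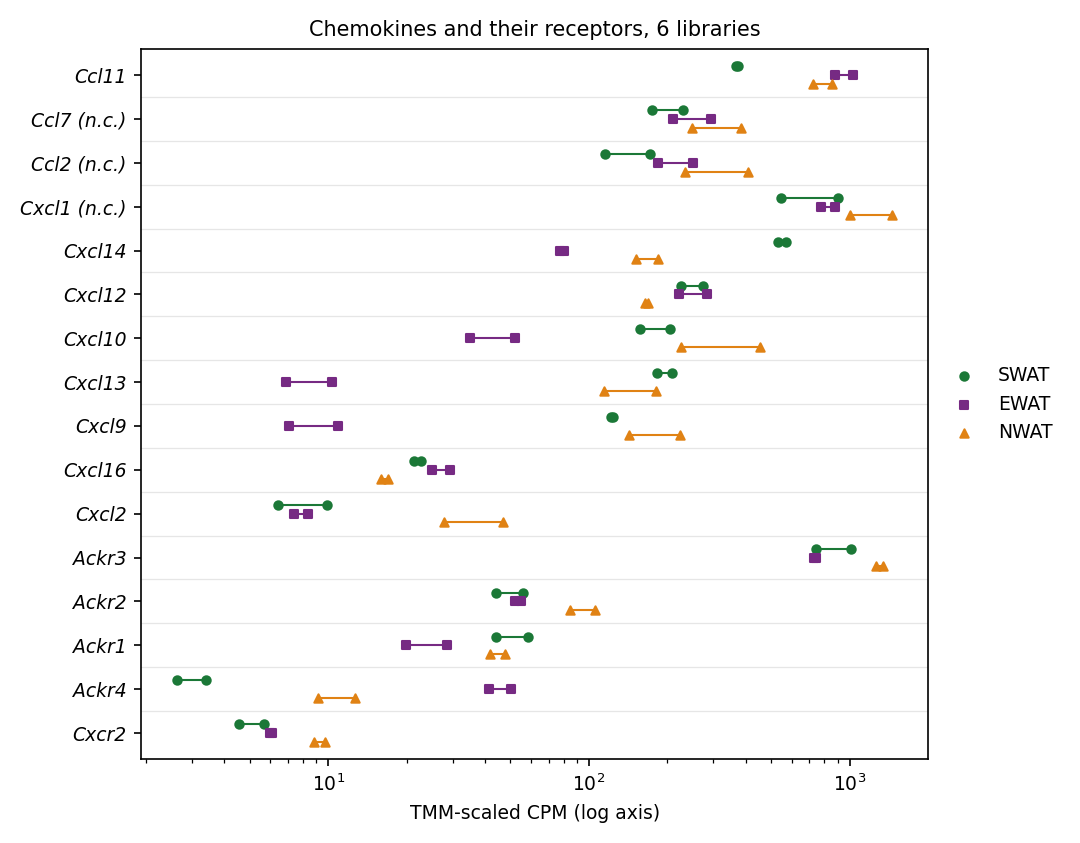
TMM-scaled CPM (horizontal log axis) of chemokines and their receptors with a mean of at least 5 CPM, with 1 point per library and a line joining the 2 libraries of a depot. Genes marked n.c. did not pass the joint test. The EWAT libraries of Cxcl13 and Cxcl9 lie between 6.91 and 10.9 CPM and those of the other depots at 114 or more.

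Among CC chemokines, Ccl11, or eotaxin, was lowest in SWAT. It had 366 and 374 CPM in SWAT, 876 and 1032 in EWAT and 721 and 856 in NWAT, with EWAT 2.58-fold (log2 1.37 ± 0.13 SE, edgeR adjusted p = 1.01e-05) and NWAT 2.13-fold over SWAT (adjusted p = 0.000119). Its neighbours on chromosome 11, the monocyte attractants Ccl2 and Ccl7, did not pass the joint test (edgeR adjusted p = 0.0788 and 0.142). Both passed it with library totals, and Ccl2 also did so with the 3 limma settings. For Ccl2, the log2 difference of NWAT from SWAT was 1.16. It was 1.5 without NWAT replicate 1 and 0.69 without NWAT replicate 2. Ccl2 was at 172 and 116 CPM in SWAT, 184 and 249.5 in EWAT and 233 and 408 in NWAT. Ccl7 was at 229 and 175 CPM in SWAT, 209 and 295 in EWAT and 249 and 381 in NWAT. Ccl8, of the same cluster, went the other way, at 8.55 and 8.49 CPM in SWAT, 0.420 and 0.898 in EWAT and 1.86 and 2.81 in NWAT. EWAT was 12.7-fold below SWAT (edgeR adjusted p = 4.23e-06).

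Ccl6 and Ccl9, chemokines of myeloid cells, were highest in EWAT. Ccl6 had 0.384 and 0.633 CPM in SWAT, 2.1 and 2.2 in EWAT and 0.620 and 0.436 in NWAT, 4.18-fold higher in EWAT than in SWAT (edgeR adjusted p = 0.00173). Ccl9 averaged 1.40 (SWAT), 5.37 (EWAT) and 1.66 CPM (NWAT), and EWAT exceeded SWAT by 1.94 on the log2 scale (edgeR adjusted p = 0.000102). The 11 macrophage markers summed to 19.4 and 28.7 CPM in SWAT, 41.3 and 38.9 in EWAT and 25.4 and 23.3 in NWAT, and none was at 0 in all libraries. Much of this sum was Cd68 (means of 10.8 in SWAT, 13.5 in EWAT and 12.6 in NWAT) and Cd14 (5.25, 5.01 and 5.39), which differed little. Lyz2 averaged 1.76 (SWAT), 8.50 (EWAT) and 2.18 CPM (NWAT), C1qa 0.482, 2.29 and 0.504, and Adgre1 0.349, 1.05 and 0.167. Fcgr1 was under the count filter. The sum of the 5 dendritic markers averaged 8.75 (SWAT), 18.7 (EWAT) and 8.58 CPM (NWAT). Of this, Cd74 was 5.07, 10.4 and 4.08, and most of the rest was H2-Aa and H2-Ab1. Itgax and Flt3 were under the count filter. The part of macrophages and dendritic cells in Ccl6 and Ccl9 was not tested.

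All 4 atypical chemokine receptors passed the joint test, as did 41.7% of all genes. Ackr4, a scavenger of the lymphoid chemokines CCL19, CCL21 and CCL25, had 3.40 and 2.64 CPM in SWAT, 41.3 and 50.2 in EWAT and 12.6 and 9.17 in NWAT. The depots did not overlap, and EWAT was 15.2-fold over SWAT (log2 3.92 ± 0.20 SE, edgeR adjusted p = 7.04e-08) and 4.19-fold over NWAT (adjusted p = 5.14e-06). It lies within Acad11, whose means of 14.8, 15.4 and 18.4 CPM in SWAT, EWAT and NWAT did not pass the joint test.

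Ackr3, which scavenges CXCL12, had 1014 and 739 CPM in SWAT, 727 and 741 in EWAT and 1263 and 1344 in NWAT. NWAT was highest, 1.78-fold over EWAT (edgeR adjusted p = 0.00152), and its call against SWAT (0.57) was lost without SWAT replicate 2 (0.36), NWAT replicate 1 (0.62) or NWAT replicate 2 (0.53). Ackr2, a scavenger of inflammatory CC chemokines, was also highest in NWAT, at 105 and 84.8 CPM against 55.9 and 44.2 in SWAT and 54.9 and 51.9 in EWAT. NWAT exceeded SWAT 1.90-fold (edgeR adjusted p = 0.000621) and EWAT 1.78-fold (adjusted p = 0.000925). Ackr1, the Duffy receptor, had 58.3 and 44.0 CPM in SWAT, 19.9 and 28.6 in EWAT and 41.9 and 47.7 in NWAT, with EWAT 2.11-fold below SWAT (edgeR adjusted p = 0.00151). Of the 1618 bases of Ackr1, 1612 are shared with Cadm3, which was also lowest in EWAT (436 in SWAT, 159 in EWAT and 375 in NWAT). The part of Cadm3 reads in the counts of Ackr1 was not tested.

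Per unit of length the same 3 members led in every depot. Cxcl1 averaged 702 FPKM in SWAT, 949 in EWAT and 1365 in NWAT. Ccl11 averaged 319, 969 and 776 FPKM and Ackr3 383, 380.3 and 654 FPKM in the same order. Typical chemokine receptors were low: 9 of 16 were under the count filter, and Cxcr4, the receptor of CXCL12, averaged 0.134 (SWAT), 0.711 (EWAT) and 0.240 CPM (NWAT).

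Members below 5 CPM that passed the joint test and are not given above were Il16, Il2rb, Il11ra2, Ccr9 and Il12a. Il16 averaged 5.30 (SWAT), 3.53 (EWAT) and 1.64 CPM (NWAT), lowest in NWAT (edgeR adjusted p = 0.000975 against SWAT). Il12a rested on 3 counts over both SWAT libraries against 33 in EWAT and 29 in NWAT, a ratio of 9.37 for EWAT over SWAT with a counting interval from 2.94 to 47.8. Above 5 CPM, 9 members did not pass the joint test: Cxcl1, Ccl2, Ccl7 and Il6st, given above, and the receptor chains Il10rb, Il17rc, Il15ra and Il2ra and the cytokine Il15.

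Genes that work with these members but fall outside the naming rule were read from 6 lists. Of 103 tested genes on them, 55 passed the joint test (53.4%, against 41.7% of all genes). In JAK-STAT signalling 14 of 24 passed, with 4 higher and 9 lower in EWAT than in SWAT, where 18.7% of all genes were higher and 18% lower. Cish, a STAT5-induced inhibitor, averaged 29.7 (SWAT), 9.82 (EWAT) and 25.2 CPM (NWAT). Stat2, a transcription factor of interferon signalling, averaged 97.0, 61.1 and 123 CPM in the same order. Among other IL-6 family genes 6 of 8 passed, with 5 higher and 1 lower in EWAT than in SWAT. The LIF receptor Lifr averaged 50.4 (SWAT), 87.2 (EWAT) and 117 CPM (NWAT), its ligand Lif 33.6, 45.0 and 27.8 CPM, and the CNTF receptor Cntfr 44.1, 19.9 and 17.1 CPM.

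In IL-1 and Toll-type signalling 6 of 15 passed (40%, near the 41.7% of all genes), with 1 higher and 4 lower in EWAT than in SWAT. For this pair 18.7% of all genes were higher and 18% lower. The ubiquitin ligase Peli2 averaged 63.4 (SWAT), 33.7 (EWAT) and 52.3 CPM (NWAT), the kinase Irak2 9.97, 18.9 and 10.5 CPM, and the inhibitory Irak3 96.5, 81.5 and 121 CPM. In NF-kB 7 of 15 passed (46.7%), with 1 higher and 4 lower in EWAT than in SWAT. Nfkb2 averaged 86.0 (SWAT), 54.5 (EWAT) and 94.8 CPM (NWAT), and the inhibitors Nfkbia 467, 291 and 558 CPM and Nfkbie 8.40, 12.5 and 15.5 CPM. In chemokine receptor signalling 7 of 15 passed (46.7%), with 4 higher and 1 lower in EWAT than in SWAT. Among them were the G protein subunit Gnai1 at 24.1 (SWAT), 62.3 (EWAT) and 13.2 CPM (NWAT), the regulator Rgs2 at 3.44, 11.6 and 9.06 CPM, and the chemerin receptor Cmklr1 at 64.7, 115 and 102 CPM. Of other cytokines and receptors 15 of 26 passed (57.7%), with 7 higher and 4 lower in EWAT than in SWAT. Among them were the cytokine Tslp at 1.99 (SWAT), 9.14 (EWAT) and 6.88 CPM (NWAT), the KIT ligand Kitl at 53.3, 38.6 and 20.2 CPM, and Cd74, the invariant chain and MIF receptor, at 5.07, 10.4 and 4.08 CPM.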

How the data were processed

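RNA of sorted adipose-derived stem cells was sequenced in bulk. The authors deposited a matrix of estimated counts, per the file headers, of which 31.7% to 33.1% are not whole, and they deposited FPKM values, which divide counts by gene length and library size, per the file headers. The submitters' processing notes name Cell Ranger and Seurat, and the build GRCm38.p6, without roles. The aligner, counter, annotation and strand setting: not given in the sources used here. Each matrix has 2 columns that match no label and were left out, so planned comparisons with the mesenteric depot were not run.

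Counts were rounded, scaled by TMM (factors 0.893 to 1.082), filtered with filterByExpr (count minimum 10, total 15) and fitted with 1 coefficient per depot in edgeR 4.0.16 (R 4.3.3, robust quasi-likelihood, 3 residual degrees of freedom, 13694 genes). SE is the absolute log2 fold change over the square root of F. Alternatives were run with DESeq2 1.42.0 and, on log2(FPKM + 1) or log2(FPKM + 0.1), limma 3.58.1, and by leaving out each library. The code was tested on simulated data. Per-library values are given for members that passed the joint test with a mean of at least 5 CPM and for the 10 members with the highest mean, and those of 1 to 5 CPM that passed are named where depots ranged at least 4-fold. Each list outside the rule gives its 3 genes of smallest joint p at 5 CPM or more. Of these, 1 gene is not reported here. The others below 5 CPM, and the overlapping neighbours, were named after their values were seen. Members and lists were chosen with earlier results of these data known. The letters of the promoter searches were chosen at this stage as well, and the wider NF-kB form was added because the first form had no match in the Cxcl10 window. Both shares are given.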

Additional observations from a re-analysis of the deposited data

How the results depend on the processing

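Of 80 pairwise differences called for 40 named members, 57 passed under all of the 15 settings that tested them, and no called difference reversed. The members called EWAT against SWAT, higher, numbered 9. They were 17 with library totals only, 14 with limma on log2(FPKM + 1), 14 on log2(FPKM + 0.1) and 19 on log2(FPKM + 1) without a filter. The members called NWAT against SWAT, higher, numbered 13, and became 23, 24 and 22 under the first 3 of these. These settings move the median of all genes. Leaving out 1 library gave 8 to 14 members called NWAT against SWAT, higher (8 without SWAT replicate 2), and 5 to 13 members called NWAT against EWAT, lower, where the count was 11 (5 without NWAT replicate 1). The joint count of 44 ranged from 39 to 46 when 1 library was left out. It was 51 with library totals only, 47 under each of the 3 limma settings and 40 with DESeq2. Same-numbered libraries did not deviate together (correlations of 0.000549, 0.0375 and 0.11), so numbers were not taken as pairs. With a replicate block 45 members passed the joint test, and 32, 29 and 36 the pairs in the order EWAT against SWAT, NWAT against SWAT and NWAT against EWAT. With 2 libraries per depot the design limits precision, and members under the count filter could not be compared.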
